A study of Mus musculus with 16 samples.

Results

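Complex I subunits encoded in the nucleus were followed in mouse embryonic stem cells with mutant or wild-type CTCF, in medium with and without LIF. The members are the genes whose symbol is Nduf followed by a, b, c, s or v and a number, together with Ndufab1, so that pseudogenes and assembly factors are left out. There were 37 such genes of 55291 in the table, and all 37 passed the filter of a mean normalised count of at least 10, which 17757 genes passed. The RNA came from 16 libraries of the line E14Tg2a (129/Ola), whose own CTCF carries a degron, a tag for destruction by auxin, and which expresses a doxycycline-inducible CTCF transgene. The transgene was R342C, K365T or Q418R, each a change in the DNA-binding domain, or wild type (WT), in 1 line each, so that a mutation cannot be told apart from the line that carries it. The cells of all 16 libraries, WT included, were given the auxin IAA at 500 µM and doxycycline at 1 µg/ml, a treatment of 2 days in the protocol. Each line was sampled after 3 days in serum medium lacking 3 additions (no LIF) and in serum medium with them (LIF), the additions being LIF, 3 µM CHIR99021 and 1 µM PD0325901, a MEK inhibitor. Each of the 8 groups holds 2 libraries. The series asks how CTCF mutations bear on the exit from pluripotency that follows LIF removal.

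Complex I is the entry point of the mitochondrial respiratory chain: it oxidises NADH, reduces ubiquinone and pumps protons across the inner membrane. Its peripheral arm is built of the N module, which takes electrons from NADH, and the Q module, which hands them to ubiquinone, while the membrane arm has a proximal and a distal part that hold the pumps. The catalytic core is divided between the nuclear and the mitochondrial genome, and the remaining nuclear subunits, called supernumerary, stabilise the complex and aid its assembly. Naive mouse embryonic stem cells respire and also use glycolysis, and primed pluripotent cells are known for a stronger reliance on glycolysis.

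The promoters of the 3 members with the largest difference between media that have an entry, Ndufb4, Ndufb5 and Ndufa3, are shown with that of Ndufab1, the member with the smallest. Each is the RefSeq stretch (GRCm38.p6) from 250 bases before a transcription start to the end of the first 50 transcribed bases, read 5′ to 3′ on the gene's strand. Capitals mark matches on either strand to 4 motifs, which are GCGCA and GCGC with any base between them for NRF1, CCGGAAG for the ETS factor GABP, AAGATGGC for YY1 and TCAAGGTCA for ERR.
Ndufb4: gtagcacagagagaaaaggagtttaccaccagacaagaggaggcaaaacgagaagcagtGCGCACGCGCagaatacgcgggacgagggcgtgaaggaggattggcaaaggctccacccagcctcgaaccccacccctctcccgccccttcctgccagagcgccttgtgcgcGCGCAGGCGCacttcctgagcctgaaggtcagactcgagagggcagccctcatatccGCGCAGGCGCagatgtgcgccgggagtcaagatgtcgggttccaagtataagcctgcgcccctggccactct
Ndufb5: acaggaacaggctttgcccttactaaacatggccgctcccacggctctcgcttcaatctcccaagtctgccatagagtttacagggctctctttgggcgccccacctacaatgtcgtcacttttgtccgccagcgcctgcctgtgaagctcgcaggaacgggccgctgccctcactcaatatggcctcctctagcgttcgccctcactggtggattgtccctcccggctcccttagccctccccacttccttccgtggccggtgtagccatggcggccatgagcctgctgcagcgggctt
Ndufa3: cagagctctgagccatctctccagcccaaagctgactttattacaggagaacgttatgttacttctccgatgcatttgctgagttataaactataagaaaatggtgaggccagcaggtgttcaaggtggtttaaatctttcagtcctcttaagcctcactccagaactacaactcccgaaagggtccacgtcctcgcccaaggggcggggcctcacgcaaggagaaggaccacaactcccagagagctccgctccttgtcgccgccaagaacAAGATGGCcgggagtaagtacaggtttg
Ndufab1: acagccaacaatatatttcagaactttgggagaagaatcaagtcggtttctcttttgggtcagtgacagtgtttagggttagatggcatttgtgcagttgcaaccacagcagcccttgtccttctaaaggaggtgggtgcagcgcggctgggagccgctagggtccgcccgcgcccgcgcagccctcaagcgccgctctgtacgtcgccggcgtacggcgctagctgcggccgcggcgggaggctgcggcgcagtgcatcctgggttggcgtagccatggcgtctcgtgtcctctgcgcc

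The Ndufb4 promoter (chr16:37654319-37654618, minus strand) holds 3 NRF1 matches, at -191 to -182, -79 to -70 and -22 to -13 with the start base as 0. In the Ndufa3 promoter (chr7:3617123-3617422, plus strand) 1 YY1 match lies at 22 to 29. No match to these 4 motifs is in the windows of Ndufb5 (chr3:32736813-32737112, plus strand) or Ndufab1 (chr7:122101799-122102098, minus strand). Of the 37 members, 33 have a promoter entry. NRF1, a factor known for activating respiratory genes, had a match in 7 of the 33 promoters (21.2%), against 9.57% of the 12013 promoters of tested genes and 4.78% of all 27025 promoters. YY1 matched 7 (21.2%), against 4.34% and 2.88%. GABP matched 4 (12.1%), against 16.8% and 9.12%, and ERR matched 0, against 0.25% and 0.407%. The other motifs searched on both strands were GGGCGG for Sp1, found in 15 (45.5%) against 63.0% and 35.9%, and CC, 3 bases of any kind, AG, 2 of any kind and GGC for CTCF, found in 8 (24.2%) against 12.5% and 8.55%. Of all matches in these promoters, 1 pair overlapped. These shares describe the letters of the windows. The motifs were chosen with results known, and a member's window is at the start nearest to its annotated gene start while that of another gene is at the first start listed.

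Reads recovered from the normalised counts numbered 19721363 to 31935381 per library, and a member had between 94 and 5759 reads. Stem cell markers were present in the LIF libraries: 8 markers (Pou5f1, Sox2, Nanog, Klf4, Klf2, Esrrb, Zfp42, Tfcp2l1) summed to 17209 to 34682 normalised counts without LIF, against 123339 to 153895 with LIF. The 6 genes of exit from the naive state summed to 25303 to 39949 without LIF, against 2558 to 3635 with LIF. Among fibroblast markers, a check on feeder cells since the cells are described as free of feeders, Lum and Postn were at or near 0. Dcn lay at 5.5 to 171 without LIF, against 0 to 0.8 with LIF, and Col1a2 at 24.2 to 134, against 0 to 3.1. Of the 6 fibroblast genes that could be tested, 5 rose on average (Acta2 at 4.96, Thy1 at 2.92) and 1, Fn1, fell (-2.54), with a median of 3.03. The summed level of the 8 listed, mostly Fn1, was 11470 to 27805 without LIF, against 62368 to 91824 with LIF, and the part of these genes in the results was not tested. Averaged over lines, 3 of 6 primitive endoderm markers rose and 1 fell, 2 of 4 neural markers rose and 0 fell, and 2 of 4 mesoderm markers rose and 1 fell. Of all tested genes, 34.6% rose and 36.0% fell in this average, so such small counts say little about these cell types. In bulk RNA, fewer cells of a type and less RNA per cell cannot be told apart. Structural RNAs took 6.88% of WT replicate 2 without LIF, more than the 2.26% to 5.05% of the remaining 15 libraries.

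Per length, the mean level over the 16 libraries ran from 3.66 TPM for Ndufb2 to 276 TPM for Ndufa4, followed by Ndufa7 (191 TPM), Ndufs6 (186 TPM) and Ndufc2 (166 TPM). The TPM imply the length of all annotated exons joined, which is 5628 bases for Ndufb2 and 6883 for Ndufab1, so that a TPM here depends on the annotated exons as well as on the reads. The members lie on 15 chromosomes, with 5 on chromosome 17 and 4 each on chromosomes 1 and 6.

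Without LIF, complex I subunit RNA was lower. The members summed to 36724 to 43358 normalised counts in the 8 libraries without LIF, against 46237 to 54184 in the 8 with LIF, with no overlap. In TPM, the sums of 2981 to 3575 without LIF and 3540 to 4070 with LIF overlapped at their edge. Averaged over the 4 lines, 28 of 37 members fell and 0 rose at an adjusted p under 0.05 (limma on log2 of the normalised count plus 4, Benjamini-Hochberg over 17757 genes), against 36.0% of all tested genes lower and 34.6% higher. At an unadjusted p under 0.05 the limma count of higher members was also 0, as it was by edgeR and DESeq2. The median log2 difference of the members was -0.35, against -0.01 for all tested genes. The labels number the libraries of a group as replicates without saying whether they come from separate cultures, so these p-values measure only the spread between libraries, which may be technical.

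The shift was present in each line. In R342C 15 members fell, against 23.9% of all genes lower, with a median of -0.31. In K365T 20 fell, against 23.0%, with a median of -0.37. In Q418R 17 fell, against 23.5%, with a median of -0.34. In WT 16 fell, against 24.9%, with a median of -0.36. No member rose in any line, at an adjusted or unadjusted p under 0.05 by limma or at an adjusted one by edgeR or DESeq2, while 23.3% (R342C), 21.6% (K365T), 23.0% (Q418R) and 23.8% (WT) of all genes rose. The counts per line rest on few libraries: R342C had 7 without replicate 1 of either medium, K365T 13 without no LIF replicate 2 and 10 without LIF replicate 1, Q418R 9 without no LIF replicate 2 or LIF replicate 1, and WT 8 without no LIF replicate 2 and 4 without LIF replicate 1. With TPM they were 9 in Q418R and WT and 11 in K365T, whereas the average count stayed between 26 and 28 with any 1 library left out.

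**Figure D1:**
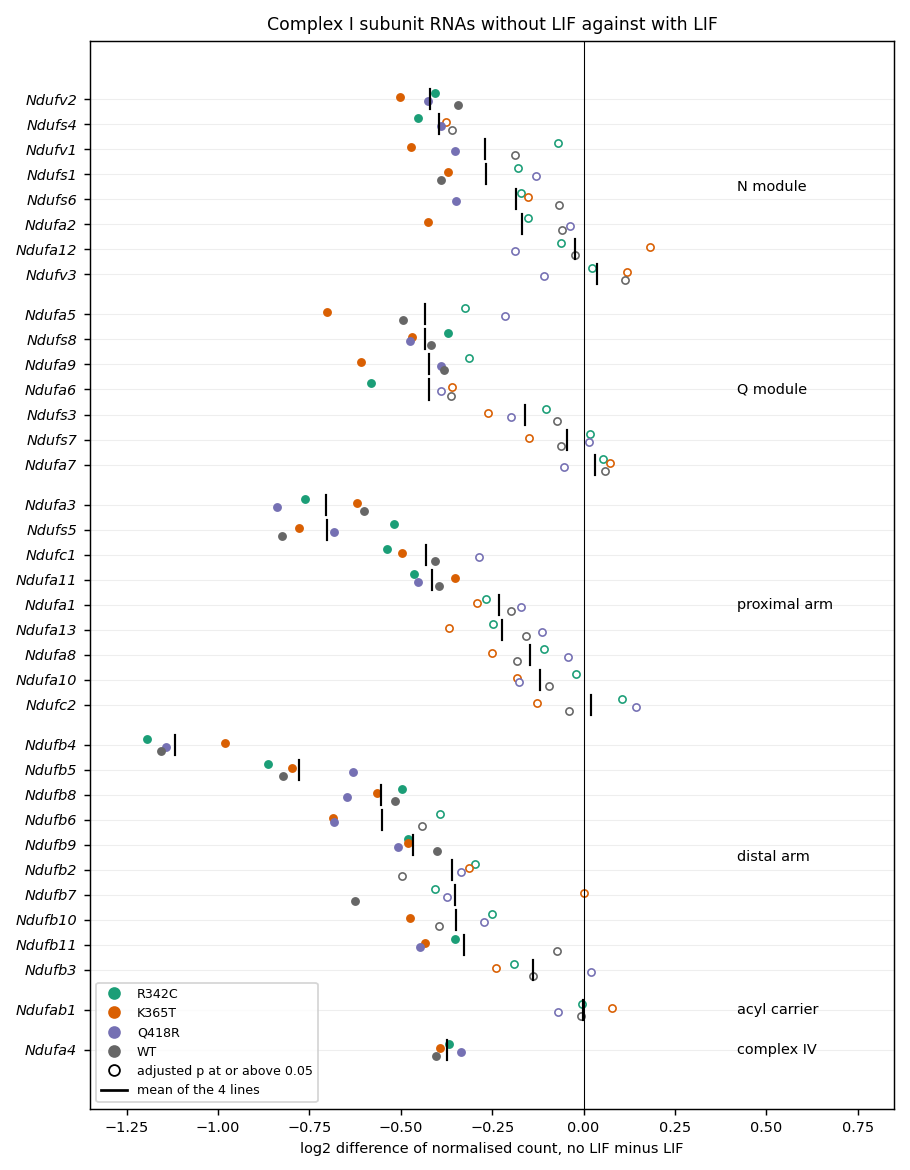
Log2 difference of the normalised count, no LIF minus LIF, for 36 of the 37 members (rows, grouped by place in the complex) in the R342C, K365T, Q418R and WT lines (coloured points, filled where the adjusted p is under 0.05), with the mean of the 4 lines as a black bar. Nearly all bars lie left of 0, Ndufb4 farthest at -1.12, and no filled point lies right of 0.

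Across lines, 29 of 37 members had a negative difference in all 4 (37.8% of all genes), and 21 had both libraries without LIF below both with LIF in every line (24.9%), against 0 above (23.1%). Called lower in all 4 lines were 11 members (16.3% of all genes), among them Ndufs8, Ndufv2, Ndufa3, Ndufa11, Ndufs5, Ndufb4, Ndufb5, Ndufb8, Ndufb9 and Ndufa4. Of the rest, 3 were called in 3 lines, 5 in 2 lines, 5 in 1 line and 13 in none. With all lines pooled, 9 members had all 8 libraries without LIF below all 8 with LIF (16.7%), and 0 had them above (15.8%). Those 9 were Ndufs4, Ndufv2, Ndufa3, Ndufa11, Ndufc1, Ndufs5, Ndufb4, Ndufb5 and Ndufb9. Across the 37 members, the responses of any pair of lines correlated with r of 0.706 to 0.889, a description over genes that share libraries and depth within each line.

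In the N module, which oxidises NADH, 5 of 8 members fell on average and 0 rose, with a median of -0.23. Ndufv2, an iron-sulphur core subunit, had a lowest, median and highest normalised count of 1789, 2062 and 2183 without LIF, against 2388, 2695 and 3004 with LIF. Its average log2 difference was -0.42 ± 0.06 (SE; 8 libraries per medium; limma adjusted p = 1.04e-05), and the media did not overlap. It was called in all 4 lines, but in none on the TPM scale. Those calls were also lost in R342C without no LIF replicate 1 or LIF replicate 2 (adjusted p up to 0.0799), in Q418R without LIF replicate 1 (0.0735) and in WT without no LIF replicate 2 or either LIF replicate (up to 0.101). Ndufv1, the core subunit that binds NADH and its flavin cofactor, had 1404, 1591 and 1840.4 without LIF, against 1652, 1877 and 2162 with LIF, an average of -0.27 ± 0.06 (limma adjusted p = 0.000732). Its ranges overlapped, and it was called in K365T (-0.47) and Q418R (-0.35), with -0.07 in R342C and -0.19 in WT. Neither line's call held on the TPM scale, and that in Q418R was lost without no LIF replicate 2 or either LIF replicate (adjusted p up to 0.135).

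Ndufs1, the large iron-sulphur core subunit, had 2387, 2892 and 3902 without LIF, against 2974, 3457 and 5285 with LIF, an average of -0.27 ± 0.05 (limma adjusted p = 0.000427). The K365T libraries were the highest in both media. The pooled ranges overlapped, also without K365T: Q418R had 3381 and 3073 without LIF, R342C 2974 and 2979 with LIF. In each line both libraries without LIF still lay below both with LIF. Ndufs1 was called in K365T (-0.37) and WT (-0.39), with -0.18 in R342C and -0.13 in Q418R. The K365T call was lost without no LIF replicate 1 or LIF replicate 2 (adjusted p up to 0.12) and the WT call without no LIF replicate 2 or LIF replicate 1 (up to 0.0771). On the TPM scale the average was -0.19 and neither it nor these lines were called. Ndufs1 shares a stretch of the genome with the abundant Eef1b2 on the opposite strand (mean 13992 normalised counts), and whether the counting used strand is not given in the sources used here. Ndufs4, a supernumerary subunit needed for a stable N module, had 864, 1106 and 1253 without LIF, against 1335, 1419 and 1549.8 with LIF, with no overlap and an average of -0.39. Ndufs6 also fell (-0.18), whereas Ndufa2 (-0.17), Ndufa12 (-0.02) and Ndufv3 (0.04) did not pass the test.

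In the Q module, 6 of 8 members fell and 0 rose, with a median of -0.42. Ndufs8, a core carrier of iron-sulphur clusters, had 1062, 1145 and 1476 without LIF, against 1399, 1601 and 1865 with LIF, an average of -0.43 ± 0.06 (limma adjusted p = 2.65e-05). It was called in all 4 lines, and its pooled ranges overlapped at the edge. In R342C Ndufs8 (-0.37) lost its call without any 1 of the 4 libraries compared (adjusted p 0.0523 to 0.171). Ndufs8 lost its calls in K365T without no LIF replicate 2 or LIF replicate 1 (up to 0.0653), in Q418R without no LIF replicate 1 (0.0717) and in WT without no LIF replicate 1 or LIF replicate 2 (up to 0.164).

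The other core members of the module moved less. Ndufs3 had 681, 776 and 842 without LIF, against 718, 860.0 and 1058 with LIF, an average of -0.16 ± 0.07 (limma adjusted p = 0.0441). That call was lost in 10 of the 16 fits that each left out 1 library, from all 4 lines (adjusted p 0.0201 to 0.117 over the 16), and with no filter, TPM, upper-quartile scaling or DESeq2. Ndufs7, which helps to form the ubiquinone site, had 616, 769 and 824 without LIF, against 628, 785 and 903 with LIF, an average of -0.04 ± 0.06 (limma adjusted p = 0.544). Its ranges overlapped almost fully, and its sign turned with TPM (0.03). Among supernumerary members, Ndufa5 (-0.43), Ndufa9 (-0.42) and the LYR-family subunit Ndufa6 (-0.42) fell, and Ndufa7 (0.03) did not pass the test.

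In the proximal membrane arm, 7 of 9 members fell and 0 rose, with a median of -0.23. Ndufa3 had 443, 510.3 and 697 without LIF, against 716, 872 and 1080.2 with LIF, an average of -0.71 ± 0.07 (limma adjusted p = 6.63e-07), or 0.613 of the LIF level. It was lower in every line, at -0.76 in R342C, -0.62 in K365T, -0.84 in Q418R and -0.60 in WT, the last lost without WT LIF replicate 1 (adjusted p 0.0538). Ndufs5, a subunit on the intermembrane side, had 117, 141 and 154 without LIF, against 206, 225 and 256 with LIF, an average of -0.70 ± 0.09 (limma adjusted p = 7.3e-06).

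Neither gene's media overlapped. In R342C the call of Ndufs5 (-0.52) was lost without any 1 of its 4 libraries (adjusted p 0.0875 to 0.123), and in Q418R (-0.68) without no LIF replicate 1 or LIF replicate 2 (adjusted p up to 0.0793). Reads of Ndufs5 could be shared with its near copy Ndufs5-ps, whose mean normalised count of 368 exceeds the 186 of Ndufs5 and whose average difference was -0.73. Ndufc1 (-0.43), Ndufa11 (-0.42), Ndufa1 (-0.23), Ndufa13 (-0.22), also known as GRIM-19, and Ndufa10 (-0.12) also fell. Ndufc2 had 898, 979 and 1101 without LIF, against 888, 947 and 1153 with LIF, an average of 0.02, and Ndufa8 (-0.15) did not pass the test either.

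The distal membrane arm held 4 of the 6 supernumerary members with the largest average difference. Of its 10 members, 9 fell and 0 rose, with a median of -0.41. Ndufb4 was the farthest. Its normalised counts were 480.4 and 497 without LIF, against 1028 and 1225 with LIF, in R342C. They were 488 and 424 against 946 and 860.1 in K365T, 454 and 501 against 1027 and 1088 in Q418R, and 509 and 561 against 1109.7 and 1288 in WT. All 8 libraries without LIF thus lay below all 8 with LIF by a wide gap, and in TPM they lay at 31.7 to 36.3 without LIF, against 59.8 to 82.1 with LIF. The average difference was -1.12 ± 0.07 (limma adjusted p = 1.85e-09), or 0.461 of the LIF level.

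Ndufb5 had 897, 991 and 1226 without LIF, against 1575, 1701 and 1885 with LIF, an average of -0.78 ± 0.06 (limma adjusted p = 4.03e-08), also without overlap. It spanned -0.86 in R342C, -0.80 in K365T, -0.63 in Q418R and -0.82 in WT. Ndufb8 had 1024, 1217 and 1556 without LIF, against 1497, 1776 and 2247 with LIF, an average of -0.56 ± 0.07 (limma adjusted p = 4.17e-06). Its pooled ranges overlapped, the highest library without LIF being one of K365T and the lowest with LIF one of R342C. Its calls were lost in R342C without replicate 1 of either medium (adjusted p up to 0.0814), in K365T without no LIF replicate 2 or LIF replicate 1 (up to 0.0556) and in WT without LIF replicate 1 (0.062).

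Ndufb6 had 456, 612 and 768 without LIF, against 713, 867 and 1065 with LIF, an average of -0.55 ± 0.09 (limma adjusted p = 5.55e-05). It was called in K365T (-0.69) and Q418R (-0.68), and its -0.39 in R342C and -0.44 in WT passed once a replicate term per line was added. Its K365T call was lost without LIF replicate 1 (adjusted p 0.0607) and its Q418R call without no LIF replicate 2 (0.082). Ndufb9 (-0.47), Ndufb2 (-0.36), Ndufb7 (-0.35), Ndufb10 (-0.35) and Ndufb11 (-0.33) fell, and Ndufb3 (-0.14) did not pass the test. Ndufb5, Ndufb2 and Ndufb11 overlap Mrpl47, Braf and Rbm10 on the opposite strand, as Ndufa3 overlaps Tfpt.

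**Figure D2:**
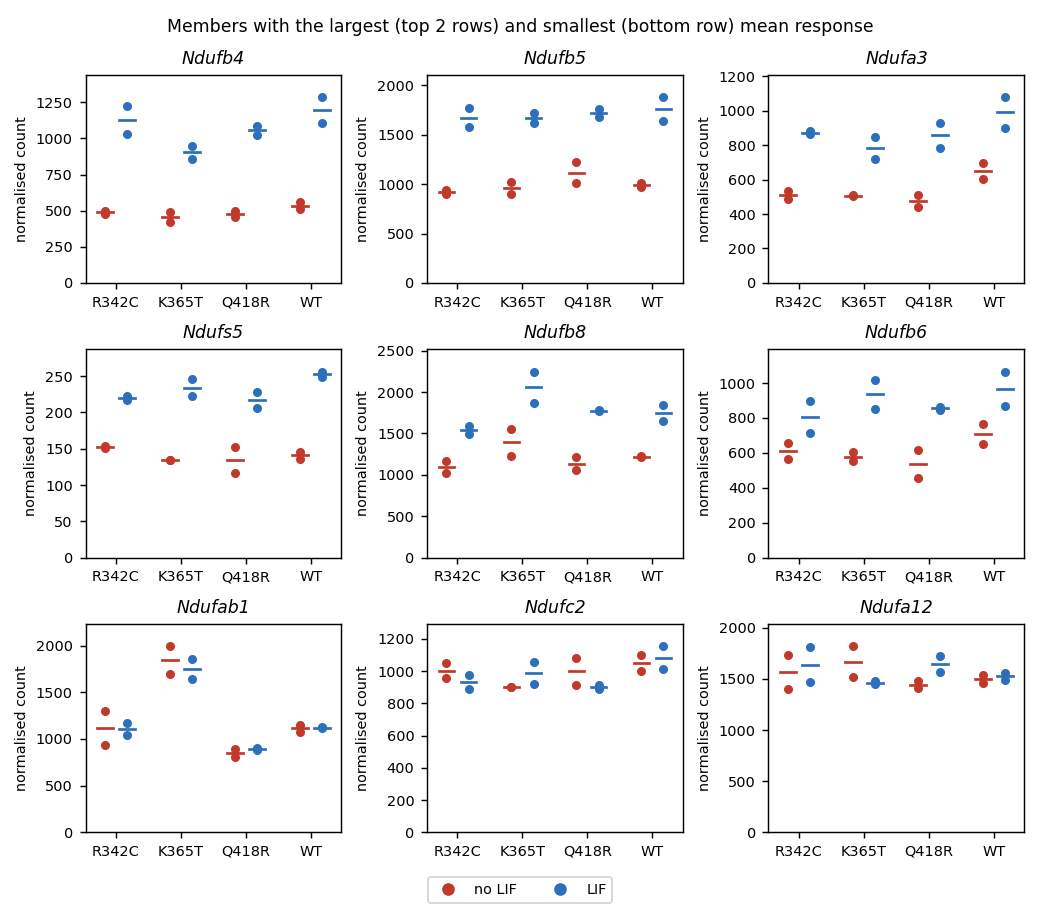
Normalised counts (vertical axes from 0) of the 6 supernumerary members with the largest and the 3 members with the smallest average difference, in each line without LIF (red) and with LIF (blue); points are the 2 libraries of a group and bars their mean. In the upper 6 panels every red point lies below the blue points of the same line, while Ndufab1, Ndufc2 and Ndufa12 have no such order across the lines and Ndufab1 is highest in K365T in both media.

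The remaining members stand apart from the arms. Ndufab1, the mitochondrial acyl carrier protein, which serves fatty acid synthesis and also sits in both arms, had 804, 1113 and 1991 without LIF, against 877, 1119 and 1854 with LIF, an average of -0.00. Ndufa4, named as a complex I subunit and later assigned to complex IV, had 1858, 2568 and 3238 without LIF, against 2362, 3342 and 4485 with LIF. It fell by 0.37 on average (SE 0.06; limma adjusted p = 4.87e-05), was called in all 4 lines, and overlapped between media, with WT highest and Q418R lowest among the lines with LIF. By kind, 6 of 7 core members fell (median -0.27) and 21 of 29 supernumerary members (median -0.35).

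The other parts of the respiratory chain were taken from lists and described by counts and medians of the same average difference. In it 36.0% of all tested genes fell and 34.6% rose. Of the 7 mitochondrially encoded complex I subunits, 4 fell and 0 rose (median -0.44), and 2 fell under TPM or upper-quartile scaling. The 4 were mt-Nd1 at -0.63, mt-Nd3 at -0.59, mt-Nd2 at -0.54 and mt-Nd4 at -0.20. Levels were low for mt-Nd3, with a mean of 21.2 normalised counts, and for mt-Nd4l, with 17.4. The median is the value of mt-Nd4l, which was not called. Of 4 complex II subunits 3 fell and 1 rose (median -0.31). Of 9 complex III subunits 7 fell and 0 rose (median -0.39), led by Uqcr10 at -1.06, Uqcrc1, a core protein, at -0.80 and Uqcrb at -0.77. Of 15 complex IV subunits 11 fell and 2 rose (median -0.39), led by Cox7a1 at -2.08 and Cox5a at -1.13. Of 16 listed complex V genes 11 fell and 3 rose (median -0.26), led by Atp5g1, which encodes the ATP synthase c ring subunit, at -0.94. The list includes Atpif1, an inhibitory factor of the complex and not a subunit, which rose (0.23). The direction of the medians held under TPM and upper-quartile scaling, with fewer genes called lower in complex IV (7 and 8) and complex V (7 in each). These scalings moved the median of all genes to 0.07 and 0.06, and left 22 and 23 complex I members lower and 0 higher, with medians of -0.26 and -0.28.

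The assembly factors of complex I had no common direction. Of 16 tested, 5 rose and 5 fell, against 34.6% and 36.0% of all tested genes. Their median was -0.04, and its sign turned under TPM and upper-quartile scaling (0.03 in each). Tmem126b, a factor for the membrane arm, was at 1.03, Ndufaf7, a methyltransferase, at 1.00, Ndufaf6 at 0.73 and Acad9, an assembly factor related to acyl-CoA dehydrogenases, at -0.68. Of 15 regulators of mitochondrial gene expression 6 rose and 6 fell (median -0.12), set against the same shares of all tested genes. Polg2 and Polg, subunits of the mitochondrial DNA polymerase, were at 1.02 and 0.77, Ppargc1b, a coactivator, at 0.67, and Gabpa, the ETS factor whose motif was searched above, at -0.75. Of 14 citrate cycle genes 9 fell and 3 rose (median -0.21), while of 19 glycolysis genes 14 rose and 4 fell (median 0.42), with Pdk1, which restrains pyruvate entry into mitochondria, at 2.69, Slc2a1, a glucose transporter, at 2.21, Hk1 at -2.43 and Pfkp at -2.01.

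**Figure D3:**
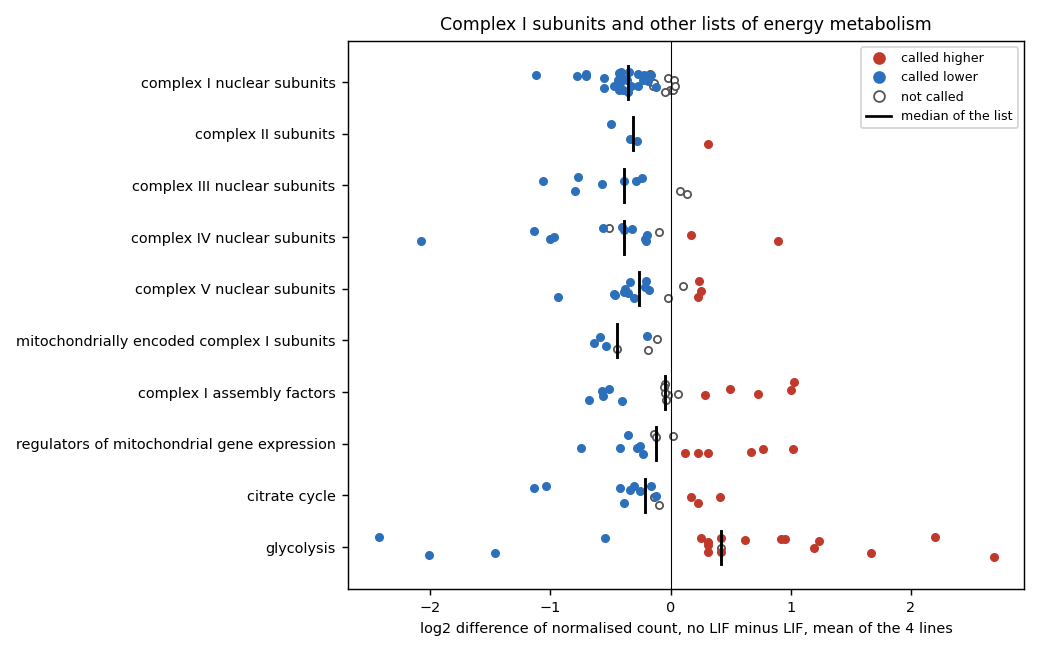
Average log2 difference of the normalised count, no LIF minus LIF, over the 4 lines (horizontal axis) for each tested gene of 10 lists (rows), with called higher genes in red, called lower genes in blue, genes not called open and the list median as a black bar. The medians of complexes I to V lie between -0.26 and -0.44, counting nuclear and mitochondrial complex I subunits apart, those of assembly factors and regulators near 0, and that of glycolysis at 0.42.

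The medium response itself was compared between each mutant and WT by an interaction term. The count of members called was 0 for R342C, K365T and Q418R (0%, 0.659% and 0.141% of all genes by limma), and 0 by edgeR and DESeq2. At an unadjusted p under 0.05 there were 0, 1 and 0 members, against 288, 2082 and 1493 of all 17757 genes by limma. With 2 libraries per group these counts do not show that the responses were alike.

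Between the mutant lines and WT within a medium, few members differed, and the 3 comparisons share the WT libraries. In R342C 0 members were called in either medium by limma, edgeR or DESeq2, against 0.479% of all genes without LIF and 0.417% in LIF. At an unadjusted p under 0.05 limma counted 12 members without LIF and 5 in LIF, all lower. Of all 17757 genes, 1006 without LIF and 1005 in LIF passed in either direction. The members leaned low: 31 of 37 were negative without LIF (median -0.17) and 35 in LIF (median -0.18). The medians of all genes were 0.01 and 0.00. Without LIF the member medians of K365T and Q418R, given below, were negative too. On the TPM scale the R342C member medians were -0.00 without LIF and -0.04 in LIF, where the medians of all genes were 0.15 and 0.12.

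In K365T without LIF 4 members were higher and 3 lower than in WT, against 7.38% of all genes higher and 7.33% lower. In LIF 4 were higher and 2 lower, against 6.42% and 4.66%. Members on chromosome 1 were among them. Ndufs1 had 3735 and 3902 normalised counts in K365T without LIF, against 2690.3 and 2387 in WT, a log2 difference of 0.59 (limma adjusted p = 0.00344). In LIF it had 4608 and 5285, against 3483 and 3165 (0.57; limma adjusted p = 0.00467).

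Ndufa10, a subunit with a fold like that of nucleoside kinases, had 3240.1 and 3517 in K365T without LIF, against 2361 and 2438 in WT (0.49; limma adjusted p = 0.00661), and in LIF 3770.3 and 3898, against 2572 and 2552 (0.58; limma adjusted p = 0.00288). For Ndufs1 and Ndufa10 the K365T and WT libraries of a medium did not overlap. Their neighbourhoods were higher too. Neighbours are the other genes within 5 Mb with a mean of at least 100 and 1 annotated position. Their median difference was 0.48 without LIF and 0.51 in LIF around Ndufs1 and 0.41 and 0.40 around Ndufa10, over 49 and 44 genes. Over the 654 genes of chromosome 1 with a mean of at least 100 it was 0.44 without LIF and 0.48 in LIF. Ndufb3, also on this chromosome, was at 0.36 and 0.46 and did not pass the test. Whether these members differ from their neighbours was not tested.

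Ndufab1, on chromosome 7, was higher as well. It had 1991 and 1696 in K365T without LIF, against 1075 and 1150.4 in WT (0.72; limma adjusted p = 0.00678), and in LIF 1854 and 1637, against 1123 and 1114 (0.64; limma adjusted p = 0.0146). K365T was above every library of the other lines in both media, while the 74 genes around it had medians of -0.16 without LIF and -0.09 in LIF. Ndufa4 was lower, at 2245 and 2375 without LIF, against 3238 and 3232 in WT (-0.49; limma adjusted p = 0.0158), and at 3072 and 2991 in LIF, against 4485 and 4087 (-0.50; limma adjusted p = 0.0157), with medians of -0.05 and -0.08 in the 12 genes around it and of -0.19 and -0.15 on chromosome 6.

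Ndufv3 had 1109.5 and 1083 in K365T without LIF, against 1393 and 1610.5 in WT (-0.45; limma adjusted p = 0.0246), and 1026 and 993 in LIF, against 1434 and 1336 (-0.45; limma adjusted p = 0.028). Ndufb11, on chromosome X, had 765 and 683 in K365T without LIF, against 955 and 1101 in WT (-0.50; limma adjusted p = 0.0178). Ndufs1 and Ndufab1 without LIF and Ndufa10 in LIF kept their calls with any 1 library left out. In LIF, Ndufa4 and Ndufv3 lost theirs without any 1 of the 4 libraries (adjusted p 0.0518 to 0.168), Ndufab1 without K365T replicate 1 or either WT replicate (up to 0.102), and Ndufs1 without replicate 2 of K365T or WT (up to 0.058). Without LIF, Ndufa10 lost its call without K365T replicate 2 (0.0509), Ndufb11 without replicate 2 of K365T or WT (up to 0.146), Ndufa4 without K365T replicate 1 or WT replicate 2 (up to 0.0778), and Ndufv3 without either K365T replicate or WT replicate 2 (up to 0.191). The count of 7 without LIF was 4 without K365T replicate 2 or WT replicate 2, 4 with TPM, and 0 when only the compared libraries were fitted, where limma called 0 of all 17757 genes (3131 at an unadjusted p under 0.05). The count of 6 in LIF was 3 without replicate 1 of K365T or of WT, 2 without K365T replicate 2 and 1 without WT replicate 2.

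In Q418R without LIF 0 members were higher and 2 lower than in WT, against 3.02% of all genes higher and 3.13% lower. In LIF 1 was higher and 2 lower, against 1.86% and 2.38%. Ndufa4 was lower in both media. It had 2247 and 1858 in Q418R without LIF, against 3238 and 3232 in WT (-0.66; limma adjusted p = 0.0055), and 2815 and 2362 in LIF, against 4485 and 4087 (-0.73; limma adjusted p = 0.00404). The 12 genes around it had medians of -0.09 without LIF and -0.20 in LIF, and the 564 genes of chromosome 6 with a mean of at least 100 had medians of -0.42 and -0.41. Its call in LIF was lost without Q418R replicate 2 or WT replicate 1 (adjusted p up to 0.0596). Ndufv3 had 943 and 1148 in Q418R without LIF, against 1393 and 1610.5 in WT (-0.52; limma adjusted p = 0.0214).

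In LIF, Ndufa5, a Q module subunit, had 376 and 399 in Q418R, against 698 and 590.0 in WT (-0.72; limma adjusted p = 0.0424), where the 22 genes around it had a median of -0.51 and chromosome 6 one of -0.41. That call was lost without any 1 of the 4 libraries (adjusted p 0.105 to 0.288), with no filter (0.07), with TPM (0.264) and with the replicate block (0.0506). The libraries of Q418R and WT did not overlap for Ndufa4, Ndufv3 or Ndufa5 in the media named. With TPM the count was 0 in both media, and with only the compared libraries fitted it was 0 without LIF, where limma called 0 of all 17757 genes (2846 at an unadjusted p under 0.05). In LIF the count was 1 without Q418R replicate 1 or WT replicate 2 and 0 without Q418R replicate 2 or WT replicate 1. Without LIF it was 1 without Q418R replicate 1 or WT replicate 2, each of which ended the call of Ndufv3. Without LIF, mt-Nd1 was called higher than in WT in K365T (0.75) and Q418R (1.02), and mt-Nd2 (0.63) and mt-Nd4 (0.53) in K365T. Of all genes, 7.38% were called higher in K365T and 3.02% in Q418R. In R342C without LIF mt-Nd1, mt-Nd2 and mt-Nd4 stood at 0.72, 0.61 and 0.57 without being called. With LIF, mt-Nd4 was the only one of these subunits called, higher in K365T (0.43), against 6.42% of all genes higher. In that medium mt-Nd1 stood at 0.64 in R342C, 0.58 in K365T and 0.69 in Q418R, and mt-Nd6 at -0.26, 0.09 and -0.11. The 3 comparisons without LIF share the 2 WT libraries. All genes named mt-, not only these subunits, took 2.29% of WT replicate 1 and 3.33% of WT replicate 2. These were the lowest and the highest share of the 8 libraries without LIF. Such a share is not the level of the subunit RNAs compared here. Without LIF, the medians of the 37 nuclear members were -0.15 in K365T and -0.19 in Q418R.

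**Figure D4:**
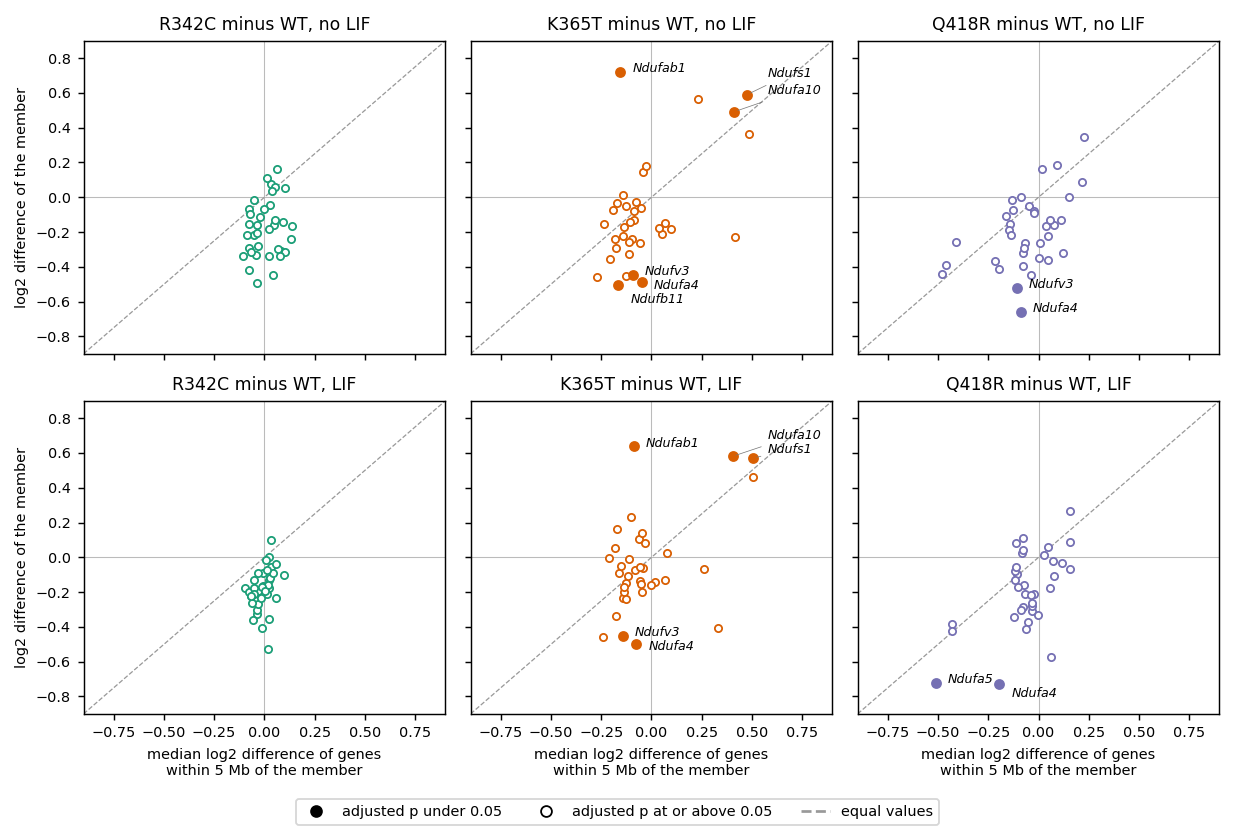
Log2 difference of the normalised count from WT for 36 of the 37 members (vertical axes) against the median difference of their neighbours (horizontal axes). Neighbours are the other genes within 5 Mb with a mean of at least 100. Panels show R342C, K365T and Q418R without LIF (top) and in LIF (bottom). Filled points have an adjusted p under 0.05 and the dashed line marks equal values. Ndufs1 and Ndufa10 in K365T lie near the line at 0.49 to 0.59, while Ndufab1 at 0.72 and 0.64 lies far above it and Ndufa4 lies below it.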

How the data were processed

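Stranded total RNA depleted of ribosomal RNA was sequenced in 16 libraries. Per the submitters' processing notes, Trim Galore, STAR, DESeq2 and mm10 were used, without versions; the counting tool and annotation are not given in the sources used here. Normalised counts, a signal in which the authors divided each library by its own size factor, fill the main deposited table, and a second one holds the authors' TPM. Deposited values were whole multiples of 0.779 to 1.19, the value of 1 read, in 100% of cases (tolerance 0.05), which gave read counts.

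Limma 3.58.1 (R 4.3.3, trend) was run on log2 values, with 4 added to each normalised count, for the 17757 genes with a mean of at least 10, of 37742 above 0, with 8 group means and 8 residual degrees of freedom. P-values were two-sided, adjusted by Benjamini-Hochberg over these genes, with a threshold of 0.05. Adding 4 compresses differences of low genes. Alternatives were a pseudocount of 1, no filter, TPM (log2 of TPM plus 0.5, mean of at least 0.5), upper-quartile scaling, the compared libraries only, a replicate block, edgeR 4.0.16 and DESeq2 1.42.0 on the reads, and leaving out each library. The scripts were tested on simulated data.

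Deviations of same-numbered libraries of a line correlated between media in 4 of 4 lines (r 0.357 to 0.422). Between lines r was -0.520 to 0.543, a range as wide in both directions. The labels do not say whether numbers pair the media within a line, and these values cannot settle it. The main fit had no replicate term. The members, lists, motifs and rules were chosen with earlier results of these data known. Values by library are given for core members, the 6 others with the largest and the 3 with the smallest average difference, and for members called against WT. The 5 Mb neighbourhoods, the pooled overlap of 8 against 8 libraries and the blocks by line and with crossed numbers were added after seeing the data. Gene positions came from GENCODE M21 (mm10). The listed names Coa1, Atp5f1, Ndufb4b and Ndufb1, the last listed for the distal arm, had no row and are not analysed here. A row named Ndufb1-ps, which the rule leaves out, had a mean normalised count of 680. Its average difference was -0.15 and was not called. The values of 1 member, which the counts and medians include, are not reported here.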

Additional observations from a re-analysis of the deposited data

How the results depend on the processing

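The count of members lower without LIF, averaged over the 4 lines, stayed within 1.5 times of 28 under every alternative run, and was 26 to 28 with 1 library left out. Counts per line moved more. With TPM they were 11 in K365T, 9 in Q418R and 9 in WT. With the compared libraries only they were 11 in K365T and 9 in WT. Leaving out 1 library gave 7 to 13 in R342C, 10 to 17 in K365T, 9 to 13 in Q418R and 4 to 16 in WT; the lone library left in a group is then assumed to vary like the other groups. Against WT, leaving out 1 library gave 4 to 7 members for K365T without LIF, 1 to 3 for K365T in LIF, 1 to 3 for Q418R without LIF and 0 to 1 for Q418R in LIF. For K365T without LIF the count was 4 with TPM, 0 with the compared libraries only and 4 with a block of crossed numbers. For Q418R without LIF it was 0 with TPM and 0 with the compared libraries only, a setting in which 0 of all 17757 genes were called in either line's comparison without LIF, and for Q418R in LIF 1 with no filter and 0 with TPM. The causes were not tested.

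With the replicate block, the counts of members lower without LIF were 17 in R342C, 20 in K365T, 17 in Q418R, 17 in WT and 29 on average. With 1 replicate term per line they were 18 in R342C, 23 in K365T, 18 in Q418R, 20 in WT and 30 on average. Among the members named with their values, the block ended the call of Ndufa5 in Q418R in LIF, added those of Ndufb6 in R342C and WT, as did the term per line, and changed no other call.

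Signs turned for members with differences near 0. Averaged over lines, Ndufs7 was at 0.0329 with TPM and 0.0302 with upper-quartile scaling, Ndufa12 at 0.0545 and 0.0516, and Ndufab1 at 0.0746 and 0.073, and Ndufab1 was at 0.000987 by edgeR and 0.0133 by DESeq2. Ndufs1 in Q418R was at 0.0186 with TPM, and Ndufs7 in WT at 0.00559 with upper-quartile scaling. Leaving out 1 library gave an average of -0.0616 to 0.0154 for Ndufa12, -0.0617 to 0.0584 for Ndufab1 and -0.00897 to 0.0516 for Ndufc2. It gave -0.163 to 0.039 for Ndufs7 in WT, -0.0593 to 0.0881 in Q418R and -0.0508 to 0.0881 in R342C. Ndufa12, Ndufab1 and Ndufc2 were recomputed for the average only, a choice made after seeing the data. Every member had at least 94 reads in each library; the number of libraries, 2 per group, limits the precision.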
